A study of Mus musculus with 10 samples.

Results

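The genes of MHC class II antigen presentation were examined in RNA seq counts of microglia isolated from the mouse cortex. They were chosen by symbol, and all 9 of them were found among the 24421 symbols of the count files: the chain genes H2-Aa, H2-Ab1 and H2-Eb1, the invariant chain gene Cd74, the peptide exchange genes H2-DMa and H2-DMb1, the exchange modulator genes H2-Oa and H2-Ob, and the transactivator gene Ciita. All 9 passed the filter on low counts.

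MHC class II molecules carry peptides from endosomes to the surface of antigen-presenting cells, where CD4 T cells read them. The alpha and beta chains bind the invariant chain during assembly, cathepsins cut that chain down to a short peptide, and the H2-DM dimer then exchanges this peptide for antigen while the H2-O dimer restrains H2-DM. Transcription of these genes depends on CIITA, which does not bind DNA itself but is recruited by factors that occupy the X and Y boxes in front of the class II genes. Microglia of the healthy brain carry little class II, and induction by interferon gamma is well known.

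All 10 libraries were made from mice aged 9 months. The WT group had 3 libraries, the APP/PS1 group 4, and the group of APP/PS1 mice injected with N-AS (APP/PS1+N-AS) 3. APP/PS1 mice overexpress mutant human APP and mutant presenilin-1 and are a model of amyloid deposition. N-AS (N-acetyl sphingosine) was given subcutaneously at 30 mg/kg each day for 8 weeks from the age of 7 months. The scheme of the injections gives vehicle for the other APP/PS1 mice, and no treatment is named for WT. Each library was a pool of a pair of mice, the cells were separated by density gradient without sorting, and the strain and the MHC haplotype were not given in the sources used here. P-values therefore measure the spread between pools.

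The total count per library lay between 8805804 and 19432075. WT 1, with the lowest total, had 566 symbols without a count. Such symbols numbered 2940 to 3985 in WT 2, APP/PS1 1 and 2 and APP/PS1+N-AS 1 and 2. They numbered 837 to 1013 in WT 3 and APP/PS1 3 and 4, and 1740 in APP/PS1+N-AS 3. The cause of this difference was not tested. Levels are given as CPM, counts scaled to the TMM-adjusted library size. The microglial list was present, with all 14 markers above 0, but neuronal, astrocytic and oligodendrocytic markers were abundant as well, so the fractions were not pure microglia. The study states that only male mice were used, whereas Xist, the RNA that coats the silenced X chromosome in female cells, had 33 to 37 counts in WT, 5253 to 11188 in APP/PS1, 7024 and 8848 in APP/PS1+N-AS 1 and 2, and 29 in APP/PS1+N-AS 3. Sex and genotype therefore cannot be told apart in the comparison of APP/PS1 with WT, and APP/PS1+N-AS 3 stood apart from the other libraries of its group.

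Promoter sequences from RefSeq (GRCm38.p6) were held for 6 of the 9 genes, namely H2-Aa, H2-Eb1, H2-DMa, H2-DMb1, H2-Oa and H2-Ob. The 250 bases before the start were searched on both strands for the Y box core ATTGG, the binding sequence of NF-Y, and for the X box core ACNGATG, which the RFX complex binds. The stretches below show where exact matches of these cores lie in front of 4 class II genes, in the direction of the gene. Capitals mark matches of the Y box core (ATTGG, or CCAAT on the other strand) and of the X box core (ACNGATG).
H2-Aa (chr17:34287824-34287973, minus strand): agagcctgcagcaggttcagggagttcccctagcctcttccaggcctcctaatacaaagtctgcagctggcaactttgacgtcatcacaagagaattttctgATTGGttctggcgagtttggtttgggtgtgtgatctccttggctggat
H2-Eb1 (chr17:34305717-34305866, plus strand): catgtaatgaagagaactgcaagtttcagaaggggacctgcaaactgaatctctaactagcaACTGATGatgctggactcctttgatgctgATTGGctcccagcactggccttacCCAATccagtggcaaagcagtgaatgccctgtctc
H2-Oa (chr17:34092229-34092340, plus strand): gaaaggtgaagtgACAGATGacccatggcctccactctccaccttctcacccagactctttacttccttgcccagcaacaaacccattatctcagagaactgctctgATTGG
H2-Ob (chr17:34238755-34238902, plus strand): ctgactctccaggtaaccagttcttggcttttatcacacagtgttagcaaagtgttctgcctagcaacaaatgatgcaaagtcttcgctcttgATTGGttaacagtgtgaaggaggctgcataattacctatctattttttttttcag

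All 6 genes held a Y box core somewhere in the 250 bases, against 33.8% of 32817 promoters of the same length. It began 48 bases before the start in H2-Aa, 59 in H2-Eb1, 61 in H2-DMb1, 43 in H2-Oa and 57 in H2-Ob, whereas H2-DMa held it only at 198 bases in front of a second annotated start. The X box core was found in 4 of the 6 genes, against 8.31% of all promoters. In H2-Eb1 and H2-DMb1 it lay directly upstream of the Y box, with 22 and 23 bases between the boxes. An X box followed by a Y box within 30 bases on the strand of the gene was found in 39 of the 32817 promoters (0.119%). Among them were those of H2-DMb2 and H2-Eb2, the paralogs of these genes. The MHC class I genes H2-D1, H2-M3, H2-Q4, H2-Q6 and H2-Q7 were among them as well. The X box match of H2-Oa stood farther away, at 137 bases, and that of H2-Aa lay at 232 bases on the other strand. H2-DMb1 and H2-DMa are not printed because GENCODE M21 (GRCm38, the build mm10 of the submitters' processing notes) places the gene start upstream of the window or of the boxes. The H2-Oa stretch is cut at base 34092340, the GENCODE start of that gene, so its Y box reaches that start. The distances given for H2-Oa count from the RefSeq start. A match is a description of these letters, and binding was not measured. Only exact matches of the cores were sought, so an X box with other letters, near or far, would have been missed.

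Chain and invariant chain genes rose in APP/PS1 microglia, by 5.82-fold (H2-Ab1) to 8.12-fold (Cd74) for those past the test, and Ciita was not higher. H2-Oa, which encodes the alpha chain of the exchange modulator, was 10.1-fold higher, from 3 to 9 reads in WT. In APP/PS1 against WT, 5 of the 9 genes passed an adjusted p of 0.05 in edgeR's quasi-likelihood test and were higher (H2-Aa, H2-Ab1, Cd74, H2-DMa and H2-Oa), where 2.67% of all 18727 genes tested were higher by that rule. At an unadjusted p under 0.05, 8 of 9 were higher against 8.3% of all genes, and the APP/PS1 libraries of the same 8 genes lay above every WT library against 8.15% of all genes. The median log2 fold change of the 9 genes was 2.08, and that of all genes was −0.07. Without WT replicate 2 only Cd74 and H2-Oa remained past the adjusted threshold (2 genes).

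Cd74 encodes the invariant chain that guides class II molecules to endosomes. Its level was 18.7, 20.6 and 13.4 CPM in WT 1 to 3, 72.0, 87.8, 124 and 283 CPM in APP/PS1 1 to 4, and 41.9, 49.9 and 23.3 CPM in APP/PS1+N-AS 1 to 3. The 3 groups did not overlap, and APP/PS1 4 was 3.93 times as high as APP/PS1 1. The log2 fold change of APP/PS1 against WT was 3.02 (SE 0.49, adjusted p = 0.00768 in edgeR).

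H2-Aa and H2-Ab1 encode the alpha and beta chains of the I-A molecule. H2-Aa was 5.23, 3.53 and 2.65 CPM in WT, 10.8, 16.3, 26.8 and 47.1 CPM in APP/PS1, and 5.47, 6.63 and 2.36 CPM in APP/PS1+N-AS. H2-Ab1 was 7.73, 7.24 and 5.54 CPM in WT, 21.8, 21.0, 36.0 and 78.4 CPM in APP/PS1, and 11.5, 12.2 and 5.32 CPM in APP/PS1+N-AS. For both genes every APP/PS1 library was above every library of the other groups, and APP/PS1+N-AS 3 lay below all WT libraries. The log2 fold changes of APP/PS1 against WT were 2.78 for H2-Aa (SE 0.53, adjusted p = 0.0184 in edgeR) and 2.54 for H2-Ab1 (SE 0.49, adjusted p = 0.0188 in edgeR).

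H2-Eb1, the beta chain of the I-E molecule, was 5.23, 5.45 and 2.31 CPM in WT, 8.72, 8.92, 17.1 and 36.8 CPM in APP/PS1, and 4.61, 6.84 and 3.92 CPM in APP/PS1+N-AS. The APP/PS1 libraries again stood above all others, but APP/PS1 4 was more than 4 times as high as APP/PS1 1, and the log2 fold change against WT of 2.08 (SE 0.54) gave an adjusted p of 0.0636 in edgeR. Without APP/PS1 4 the log2 fold change was 1.46 (adjusted p = 0.114 in edgeR). An antisense gene, Gm20513, overlaps H2-Eb1, and it is not known whether strand was used in counting. H2-Ea-ps, whose symbol marks a pseudogene of the I-E alpha chain, had no more than 11 reads in any library and was not tested for differences. H2-Eb1 had 44 reads in its lowest library, WT 1, and 774 in its highest, APP/PS1 4. Whether these mice form an I-E molecule was not tested, so the H2-Eb1 values describe this transcript only.

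**Figure D1:**
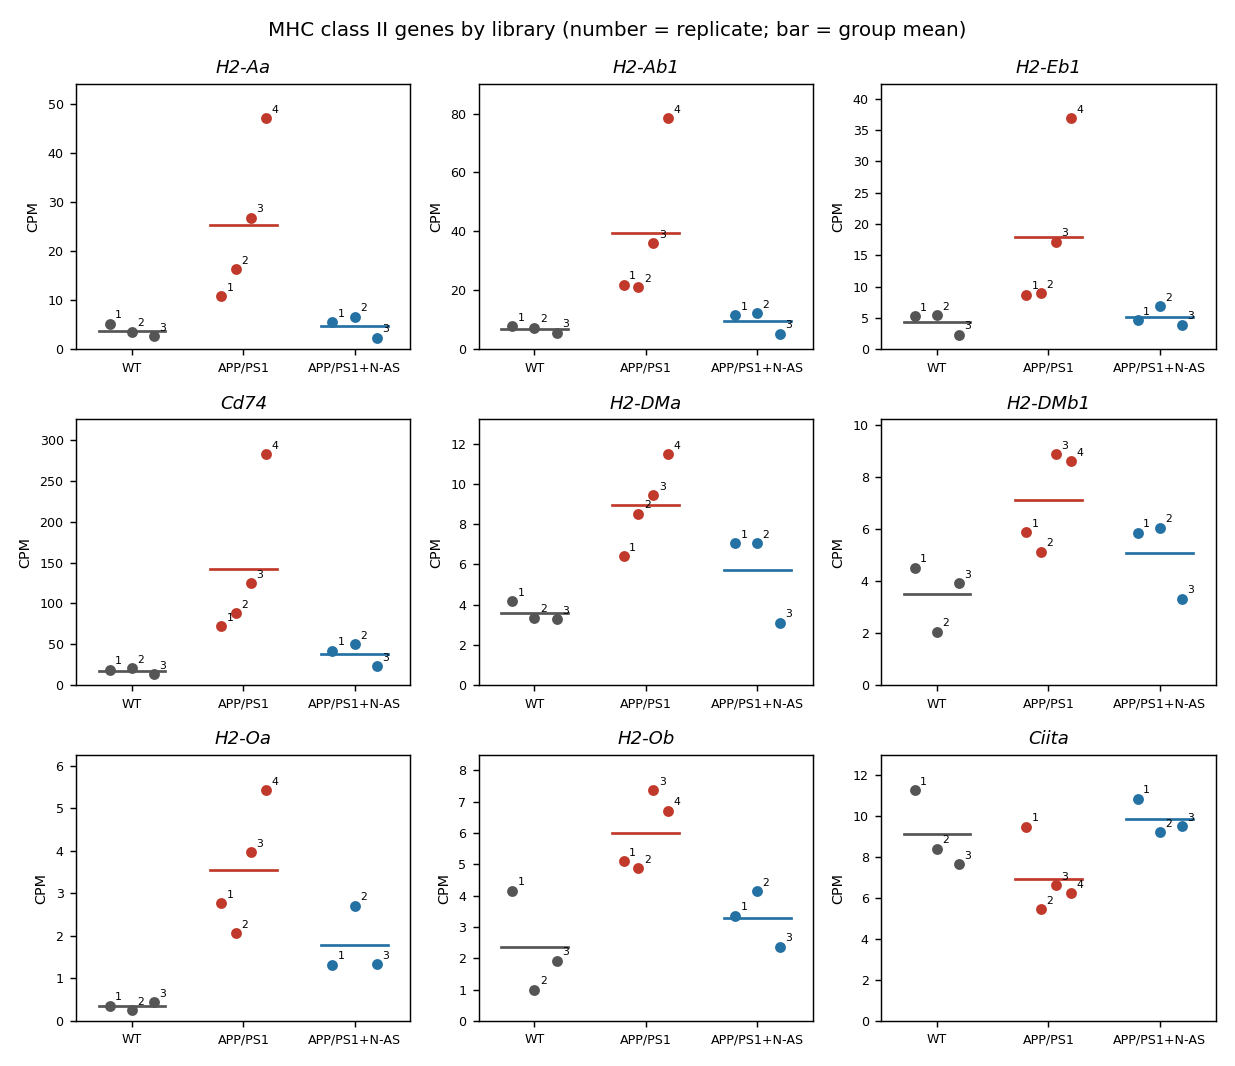
CPM (vertical axis, linear from 0) of the 9 class II genes in each library of WT (grey), APP/PS1 (red) and APP/PS1+N-AS (blue), with the replicate number beside each point and the group mean as a bar. APP/PS1 4 is the highest library for 6 of the 9 genes, and Ciita is the gene whose APP/PS1 libraries are not above WT.

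H2-DMa and H2-DMb1 encode the chains of the peptide exchange dimer. H2-DMa was 4.16, 3.34 and 3.28 CPM in WT, 6.39, 8.51, 9.43 and 11.5 CPM in APP/PS1, and 7.05, 7.05 and 3.10 CPM in APP/PS1+N-AS. Its log2 fold change of APP/PS1 against WT was 1.33 (SE 0.31, adjusted p = 0.0408 in edgeR), and this gene passed the adjusted threshold in 2 of the 10 fits with 1 library left out. Its annotated span overlaps Brd2 on the other strand. H2-DMb1 was 4.52, 2.04 and 3.91 CPM in WT, 5.87, 5.12, 8.88 and 8.62 CPM in APP/PS1, and 5.86, 6.04 and 3.32 CPM in APP/PS1+N-AS. Its log2 fold change of APP/PS1 against WT was 1.05 (SE 0.33, adjusted p = 0.129 in edgeR). H2-DMb1 has a close paralog, H2-DMb2, and how the counting assigned reads that fit both is not given in the sources used here.

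H2-Oa was 0.357, 0.248 and 0.434 CPM in WT, which is 3, 4 and 9 reads, 2.76, 2.07, 3.96 and 5.43 CPM in APP/PS1, and 1.32, 2.70 and 1.33 CPM in APP/PS1+N-AS. No APP/PS1 or APP/PS1+N-AS library reached down to WT. The log2 fold change of APP/PS1 against WT was 3.33 (SE 0.50, adjusted p = 0.00500 in edgeR), and with so few WT reads its size is imprecise. An antisense gene, BC051537, overlaps H2-Oa. H2-Ob, the beta chain partner, was 4.16, 0.991 and 1.93 CPM in WT, 5.09, 4.88, 7.38 and 6.71 CPM in APP/PS1, and 3.36, 4.13 and 2.36 CPM in APP/PS1+N-AS. The log2 fold change of H2-Ob against WT was 1.41 (SE 0.42, adjusted p = 0.103 in edgeR), and WT 1 was close to the APP/PS1 libraries. Without WT 1 the log2 fold change was 2.02 (adjusted p = 0.0254 in edgeR).

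Ciita was 11.3, 8.42 and 7.67 CPM in WT, 9.49, 5.45, 6.63 and 6.24 CPM in APP/PS1, and 10.9, 9.22 and 9.53 CPM in APP/PS1+N-AS. The WT and APP/PS1 libraries overlapped, and the log2 fold change of −0.38 had a 95% confidence interval from −0.85 to 0.08 (adjusted p = 0.398 in edgeR). Ciita is transcribed from several promoters in different cell types, and counts per gene do not separate them. Dexi overlaps Ciita on the other strand.

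Per kilobase of the longest principal GENCODE transcript, Cd74 was the most abundant of the 9 genes in every group, with a mean level of 12.4 ± 2.66 CPM per kb in WT (SD, n = 3) and 101 ± 68.5 in APP/PS1 (SD, n = 4). H2-Ab1 followed with 5.64 ± 0.945 CPM per kb in WT (SD, n = 3), and next H2-Aa with 3.37 ± 1.16 (SD, n = 3). Among H2-Aa, H2-Eb1 (2.59 CPM per kb), H2-DMb1 (2.48) and H2-DMa (2.17), neighbours in WT differed by less than the larger SD of the pair. At the lower end of WT stood Ciita (1.52 CPM per kb), H2-Ob (0.884) and H2-Oa (0.318). In APP/PS1 the order of the lower genes was H2-DMa (5.40 CPM per kb), H2-DMb1 (5.07), H2-Oa (3.27), H2-Ob (2.25) and Ciita (1.16), so that Ciita was at the bottom, and neighbours from H2-DMa to H2-Ob were within 1 SD of each other except H2-DMb1 and H2-Oa. The lengths of the counting annotation are not given in the sources used here.

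**Figure D2:**
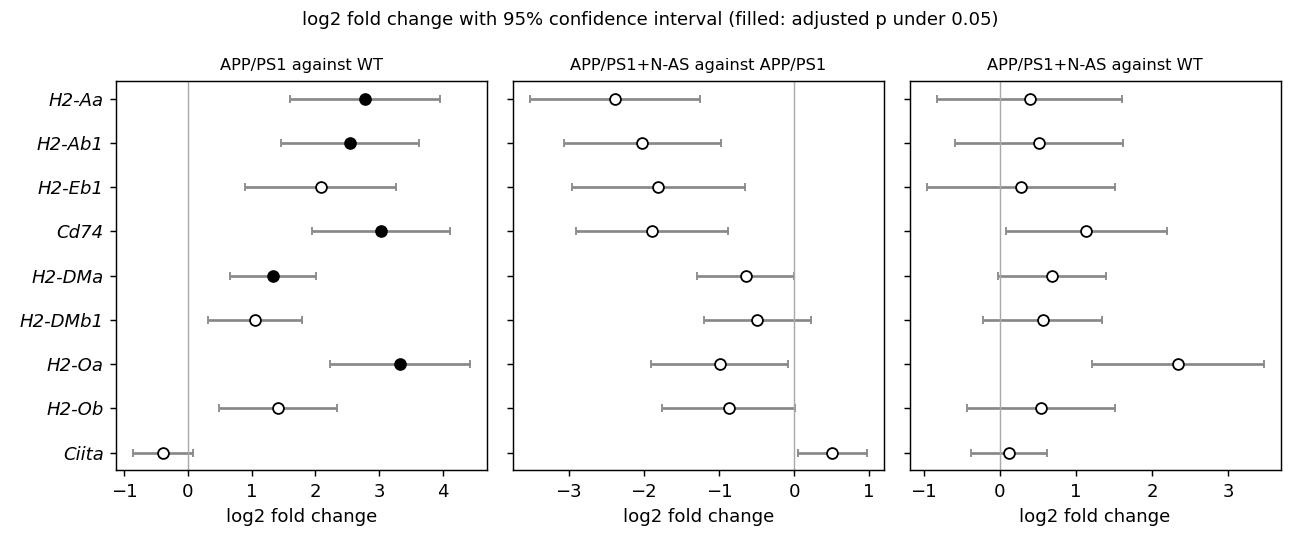
log2 fold change (horizontal axis) of the 9 class II genes in the 3 comparisons, with bars for the 95% confidence interval of edgeR's test and filled points for an adjusted p under 0.05. In APP/PS1 against WT 5 points are filled, and in both other comparisons none is.

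The APP/PS1 libraries spread widely for the chain genes and Cd74. The coefficient of variation over the 4 libraries was 63.4% for H2-Aa, 68.6% for H2-Ab1, 73.8% for H2-Eb1 and 68.1% for Cd74, compared with 23.6% for H2-DMa and 20.4% for H2-Ob, and the median over all genes tested was 16.4%. APP/PS1 4 was the highest library of its group for 6 of the 9 genes, with Cd74 at 2.99 times and H2-Eb1 at 3.18 times the mean of the other APP/PS1 libraries. Ciita in APP/PS1 4 was 0.867 times that mean. Without APP/PS1 4 the number of genes past the adjusted threshold against WT was 4.

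N-AS-injected APP/PS1 mice had lower levels of the chain genes and Cd74 than the other APP/PS1 mice, but none of the 9 genes passed the adjusted threshold in edgeR, nor did any of the 18727 genes tested (0%). At an unadjusted p under 0.05, 5 genes were lower (H2-Aa, H2-Ab1, H2-Eb1, Cd74 and H2-Oa) against 4.05% of all genes, and Ciita was higher against 4.78%. For 5 genes (H2-Aa, H2-Ab1, H2-Eb1, Cd74 and H2-Ob) every APP/PS1+N-AS library was below every APP/PS1 library, against 6.46% of all genes. The median log2 fold change of the 9 genes was −0.99, and that of all genes was −0.01. This comparison shares the APP/PS1 libraries with that of APP/PS1 and WT.

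The log2 fold change of APP/PS1+N-AS against APP/PS1 was −2.38 for H2-Aa (SE 0.51, adjusted p = 0.478 in edgeR), −2.02 for H2-Ab1, −1.81 for H2-Eb1 and −1.88 for Cd74. It was −0.64 for H2-DMa, −0.49 for H2-DMb1, −0.99 for H2-Oa and −0.87 for H2-Ob, and Ciita was at 0.51 (SE 0.21, adjusted p = 0.531 in edgeR). DESeq2 called 3 of the 9 genes, H2-Aa, H2-Ab1 and Cd74, at an adjusted p under 0.05 and gave no adjusted p for H2-Oa and H2-Ob. Without APP/PS1 4 the value was −1.90 for H2-Aa and −1.31 for Cd74, and without APP/PS1+N-AS 3 it was −2.06 and −1.62. With both libraries left out it was −1.57 for H2-Aa, −1.14 for H2-Ab1, −1.01 for H2-Eb1 and −1.04 for Cd74, and 4 genes were lower at an unadjusted p under 0.05. With the replicate number as a block, which leaves APP/PS1 4 without a partner, the value was −1.93 for H2-Aa, −1.48 for H2-Ab1, −1.22 for H2-Eb1, −1.36 for Cd74 and −0.70 for H2-Oa. Again 0 genes passed the adjusted threshold in edgeR, and H2-Oa was no longer under an unadjusted p of 0.05.

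The library numbers in the labels put replicates 1 and 2 of each group at 1 to 6 and the others at 7 to 10. Within numbers 1 to 6 the difference of mean log2 CPM between APP/PS1+N-AS and APP/PS1 was −1.12 for H2-Aa, −0.85 for H2-Ab1, −0.64 for H2-Eb1 and −0.80 for Cd74. Within numbers 7 to 10, which hold a single APP/PS1+N-AS library, it was −3.84, −3.29, −2.64 and −3.00. That library, APP/PS1+N-AS 3, had 29 Xist counts, against 8477 in APP/PS1 3 and 11188 in APP/PS1 4. Sex and N-AS therefore cannot be told apart within this set. H2-DMb1 was at 0.12 in the first set and −1.36 in the second, so that its direction was not the same. Between APP/PS1 and WT the difference for Cd74 was 2.01 in the first set and 3.80 in the second, and H2-Oa differed by 2.55 and 3.08. The first set includes WT 1, which had 566 symbols without a count, against 2940 to 3985 in the rest of that set.

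APP/PS1+N-AS against WT gave no gene past the adjusted threshold in edgeR, where 0.176% of all genes were higher. At an unadjusted p under 0.05, 2 of the 9 genes were higher, against 3.64% of all genes, and the same 2, Cd74 and H2-Oa, did not overlap with WT, against 4.9% of all genes. Cd74 was at a log2 fold change of 1.14 (SE 0.48, adjusted p = 0.692 in edgeR) and H2-Oa at 2.34 (SE 0.51, adjusted p = 0.163 in edgeR). H2-Aa was at 0.40 with a 95% confidence interval from −0.82 to 1.61, and H2-Eb1 at 0.28 with an interval from −0.96 to 1.51, so that neither a higher nor a lower level was settled at this spread. Without APP/PS1+N-AS 3 the number at an unadjusted p under 0.05 was 4, and without APP/PS1+N-AS 1, APP/PS1+N-AS 2 or WT 3 it was 1.

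Microglial markers moved with these groups. The sum of the 14 markers was 866 to 1236 CPM in WT, 2472 to 3085 CPM in APP/PS1 and 1584 to 1984 CPM in APP/PS1+N-AS, and 10 of the 14 passed the adjusted threshold as higher in APP/PS1 than in WT. In a bulk sample, more cells of a type and more RNA per cell cannot be told apart. Relative to the mean log2 CPM of the 14 markers, the difference between APP/PS1 and WT was 1.54 for Cd74, 1.25 for H2-Aa, 1.02 for H2-Ab1, 0.57 for H2-Eb1 and 1.60 for H2-Oa. H2-DMa was then at −0.01, H2-DMb1 at −0.24 and H2-Ob at 0.22, and Ciita was at −1.67. Between APP/PS1+N-AS and APP/PS1 the relative difference was −1.73 for H2-Aa, −1.20 for Cd74, 0.05 for H2-DMb1 and 1.06 for Ciita. The markers' own part in the class II differences was not tested.

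**Figure D3:**
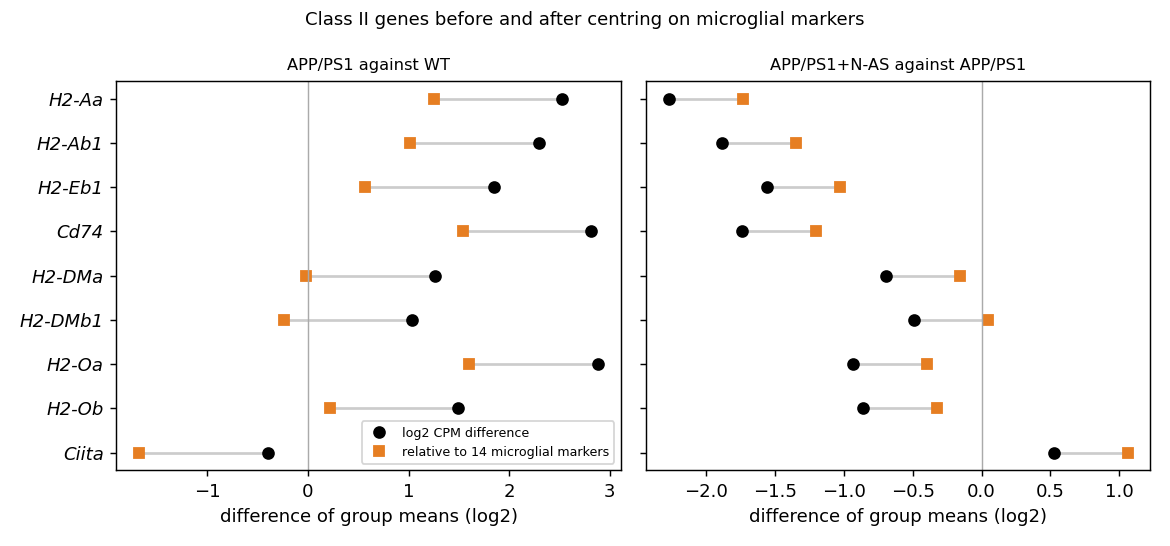
Difference of group means on the log2 CPM scale (horizontal axis) of the 9 class II genes, as measured (black circles) and relative to the mean of 14 microglial markers (orange squares). In APP/PS1 against WT, H2-DMa moves to −0.01 while Cd74 stays at 1.54 and Ciita goes to −1.67.

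Other cells that carry class II were read from their markers. The border macrophage list summed to 88.0 to 108 CPM in WT, 107 to 125 CPM in APP/PS1 and 104 to 119 CPM in APP/PS1+N-AS, and none of its 8 genes passed the adjusted threshold in APP/PS1 against WT. Most of the sum was Stab1, with means of 60.3 CPM in WT, 76.7 CPM in APP/PS1 and 79.1 CPM in APP/PS1+N-AS. In APP/PS1 against WT 5 of the 8 genes had a log2 fold change above 0, and Mrc1 (−0.16), Cd163 (−0.11) and Lyve1 (−0.20) were below 0. The dendritic cell list summed to 37.1 to 65.1 CPM in WT, 38.9 to 43.3 CPM in APP/PS1 and 36.3 to 44.4 CPM in APP/PS1+N-AS. The B cell list, of which 6 of 7 genes were in the files, summed to 2.17 to 8.2 CPM in WT, 2.48 to 6.08 CPM in APP/PS1 and 1.77 to 2.31 CPM in APP/PS1+N-AS, with Pax5 at 0 in 3 libraries. WT 1, where H2-Ob was highest among WT, had the highest B cell and dendritic cell sums of all libraries and the highest monocyte sum among WT. It was also the highest WT library for H2-Aa, H2-Ab1, H2-DMa, H2-DMb1 and Ciita. The part of these cells in the H2-Ob level of WT 1 was not tested. The neutrophil list was at 93.2 CPM in APP/PS1 3 and at no more than 17.0 CPM in the other 9 libraries. The monocyte list summed to 5.40 to 17.2 CPM in WT, 12 to 20.3 CPM in APP/PS1 and 7.51 to 10.9 CPM in APP/PS1+N-AS, so that its APP/PS1+N-AS and APP/PS1 libraries did not overlap. All 4 of its genes were below 0 in that comparison, with a median log2 fold change of −1.08, and 0 passed the adjusted threshold in edgeR. No tested gene was above 0 either in the neutrophil (median −1.11), B cell (−0.64), T cell (−0.46), endothelial (−0.17) and microglial (−0.53) lists. Above 0 were 3 of 8 border macrophage, 2 of 7 dendritic cell, 2 of 5 astrocytic, 5 of 6 neuronal and 5 of 5 oligodendrocytic genes. Reads were few for some monocyte genes, with 0 to 26 for Plac8 and 14 to 46 for Ccr2. The T cell list summed to 40.0 to 93.7 CPM in WT, 62.4 to 153 CPM in APP/PS1 and 62.7 to 98.1 CPM in APP/PS1+N-AS. Most of this sum was Cd3d, at 35.1 to 144 CPM over the libraries, against 0.675 to 3.14 CPM for Cd3e.

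Markers of brain cells other than microglia also differed between groups. Gfap, the intermediate filament gene of astrocytes, had a mean level of 14.7 CPM in WT, 735 CPM in APP/PS1 and 231 CPM in APP/PS1+N-AS. Its log2 fold change was 5.65 in APP/PS1 against WT (adjusted p = 0.000545 in edgeR) and −1.67 in APP/PS1+N-AS against APP/PS1 (adjusted p = 0.494 in edgeR), where the groups did not overlap, while the whole astrocyte list summed to 2026 to 2428 CPM in WT, 2313 to 3638 CPM in APP/PS1 and 2112 to 2988 CPM in APP/PS1+N-AS. Cnp, a myelin enzyme gene of oligodendrocytes, was lower in APP/PS1 than in WT (log2 fold change −1.68, adjusted p = 0.0194 in edgeR), and the oligodendrocyte list summed to 2147 to 6106 CPM in WT, 1736 to 4369 CPM in APP/PS1 and 2591 to 3472 CPM in APP/PS1+N-AS. The neuronal list was at 4669 CPM in WT 3 and at 1385 to 2666 CPM in the other 9 libraries. The endothelial list summed to 321 to 901 CPM in WT, 733 to 808 CPM in APP/PS1 and 620 to 749 CPM in APP/PS1+N-AS. The part of these cells in the class II differences was not tested.

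Within a library, ratios between class II genes are free of library size. The log2 ratio of Cd74 to Ciita counts was 0.94 ± 0.31 in WT (SD, n = 3), 4.16 ± 1.06 in APP/PS1 (SD, n = 4) and 1.89 ± 0.57 in APP/PS1+N-AS (SD, n = 3). APP/PS1 libraries had 7.58 to 45.4 Cd74 reads per Ciita read, whereas WT libraries had 1.65 to 2.45. The difference of APP/PS1 and WT, 3.22, gave p = 0.0286 in a two-sided exact permutation test over libraries, the smallest p that 3 against 4 libraries allow, and 0.103 after Benjamini-Hochberg adjustment over 18 tests of 6 ratios. The ratio of Cd74 to H2-DMa differed by 1.54 between APP/PS1 and WT and by −1.04 between APP/PS1+N-AS and APP/PS1, each with the same exact p of 0.0286 and adjusted p of 0.103. The ratio of H2-Oa to H2-Ob rested on 3 to 9 H2-Oa reads in WT and differed by 1.61 between APP/PS1 and WT, with the same p-values. H2-Aa to H2-Ab1 differed by 0.25 (exact p = 0.257) and H2-DMa to H2-DMb1 by 0.23 (exact p = 0.486).

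Other genes of the pathway were taken from a list of 38, of which 37 were tested. In APP/PS1 against WT 9 were higher and 0 lower at an adjusted p under 0.05 in edgeR, where 2.67% of all genes were higher. Their median log2 fold change was 0.41. The antigen processing genes held 6 of these 9. Ctss, the cathepsin that cuts the invariant chain in many antigen-presenting cells, rose from 221 ± 69.3 CPM (SD, n = 3) to 1411 ± 377 CPM (SD, n = 4), a log2 fold change of 2.67. Ctsl rose by 2.09, Ctsb by 1.85, Ctsd by 2.72, Lgmn by 1.04 and Ifi30, the thiol reductase of endosomes, by 1.41 on the log2 scale. Relative to the mean log2 CPM of the 14 microglial markers, Ctss was at 1.40, Ctsl at 0.80, Ctsb at 0.58 and Ctsd at 1.45. Lgmn was then at −0.22 and Ifi30 at 0.12.

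The 7 factors that bind the class II promoters or belong to the same complexes (Rfx5, Rfxap, Rfxank, Nfya, Nfyb, Nfyc and Creb1) were between −0.26 and 0.29 on the log2 scale in APP/PS1 against WT, and 0 of 7 passed an adjusted or an unadjusted p of 0.05. In the interferon gamma axis Irf8 rose by 1.66 and the receptor subunit gene Ifngr1 by 0.67, while Ifng itself was at 0.93 (adjusted p = 0.515 in edgeR) with 3 to 27 reads per library. Of the 6 costimulation genes Cd86 rose by 1.46, and Cd80 was at 0.41 and Cd40 at −0.06 without passing the test. Relative to the mean log2 CPM of the microglial markers, Irf8 was at 0.34, Ifngr1 at −0.61 and Cd86 at 0.17. March1, which directs class II molecules to degradation, was at −0.03.

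In APP/PS1+N-AS against APP/PS1 none of the 37 genes passed the adjusted threshold in edgeR, and 6 were lower at an unadjusted p under 0.05, namely Ctss, Ctsl, Ctsb, Ctsd, Ifi30 and Cd86, against 4.05% of all genes. Ctss was at a log2 fold change of −0.93, Ctsl at −0.80 and Ctsd at −0.95. In APP/PS1+N-AS against WT Ctsl (1.29, adjusted p = 0.0238 in edgeR) and Ctsd (1.78, adjusted p = 0.0256 in edgeR) were higher, against 0.176% of all genes.

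**Figure D4:**
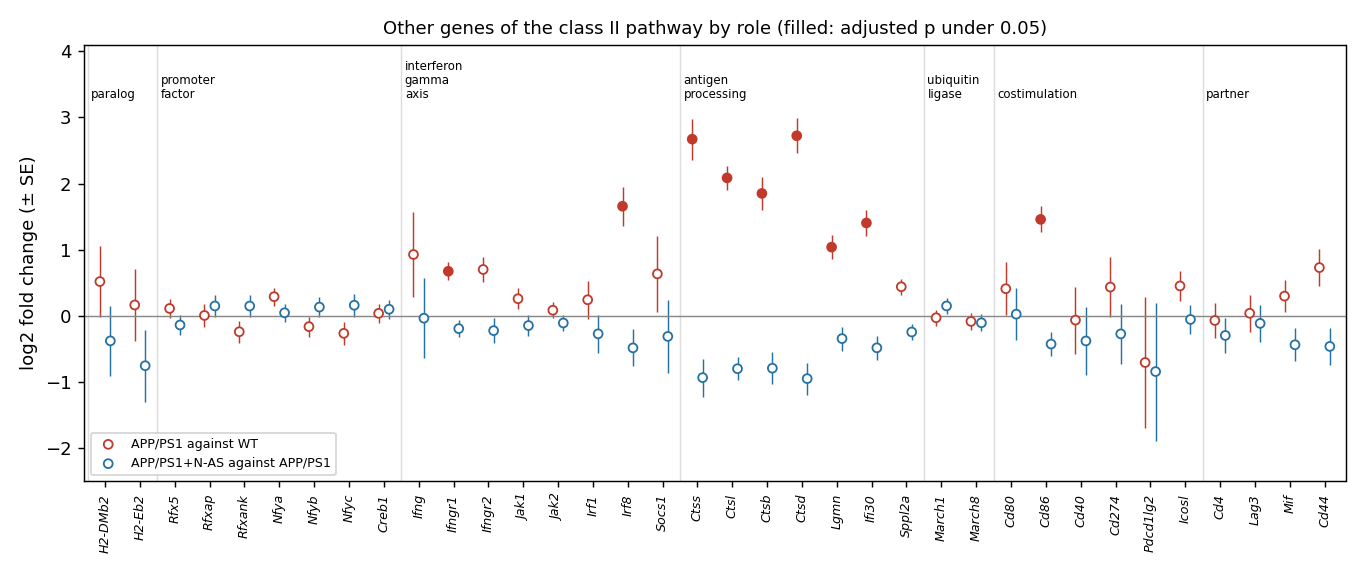
log2 fold change with SE (vertical axis) of the other class II pathway genes, grouped by role, in APP/PS1 against WT (red) and APP/PS1+N-AS against APP/PS1 (blue), with filled points for an adjusted p under 0.05. The 9 filled points are all red, and 6 of them are antigen processing genes.

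The genes whose log2 CPM over the 10 libraries was most like the mean of H2-Aa, H2-Ab1, H2-Eb1 and Cd74 were Mir5107, Rpsa, Rps3 and S100b (each r = 0.97) and Rpl34 (r = 0.96). Mir5107 lies inside Cd74 on the same strand and can share its reads. The libraries differ in depth and in cell content, and 162 of 18718 genes had an r above 0.9. Among the other class II genes r was 0.92 for H2-DMa, 0.84 for H2-Oa, 0.79 for H2-Ob and H2-DMb1, and −0.61 for Ciita.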

How the data were processed

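RNA from cortical microglia was depleted of ribosomal RNA, made into stranded libraries and sequenced as paired ends. Per the submitters' processing notes, reads were aligned with TopHat to mm10, and the authors deposited raw counts per gene for each library, with edgeR also named in those notes. The gene annotation, the counting options and the versions are not given in the sources used here. The files hold 24481 lines, and 103 lines that share 43 symbols were summed, leaving 24421.

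The 9 genes, the pathway list and the marker lists were chosen with earlier results of these data known. The named genes were all 9 members, the pathway list, the 5 genes most like the chain genes and Cd74, the cell type markers and Xist. For 1 gene of the pathway list, which is included in the counts, no test result of its own is reported here. Counts of all 10 libraries were fitted in 1 model of 3 groups with edgeR 4.0.16 in R 4.3.3 (filterByExpr, TMM, glmQLFit, glmQLFTest), 18727 genes were tested, and p-values were adjusted by Benjamini-Hochberg over all of them (threshold 0.05). The biological coefficient of variation was 27.4%. The scripts were tested on simulated data. CPM and log2 CPM (prior count 2) used TMM-scaled library sizes. Reads carry no molecular identifiers.

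The replicate numbers come from the labels. After group means were removed, same-numbered libraries of APP/PS1+N-AS and APP/PS1 correlated at 0.278, 0.142 and 0.309, those of APP/PS1 and WT at −0.485, 0.441 and −0.010, and those of APP/PS1+N-AS and WT at −0.136, 0.348 and 0.240. However, APP/PS1+N-AS 2 correlated more with APP/PS1 1 (0.173), and APP/PS1+N-AS 3 more with APP/PS1 4 (0.320). Between APP/PS1+N-AS and APP/PS1, libraries of the same library set correlated positively. Those of different sets correlated negatively, from −0.143 to −0.341. Correlations with WT did not all follow the library set. WT 1 correlated at −0.485 with APP/PS1 1 of its own set and at 0.518 with APP/PS1 3 of the other set. None of these correlations shows that the numbers pair libraries, so the replicate block served only as an alternative fit. DESeq2 1.42.0, limma 3.58.1 after quantile normalization, other scalings and filters, a replicate block, the library set as a covariate, a fit of 2 groups and each library left out were the alternatives. A fit without APP/PS1 replicate 4 and APP/PS1+N-AS replicate 3, the values relative to microglial markers and those within library sets were added after the data had been seen.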

Additional observations from a re-analysis of the deposited data

Results flagged for a closer look

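In the 4 APP/PS1 libraries 1 library lay far from the other 3 for 4 of the 38 pathway genes and for 0 of the 9 class II genes, and chance gives this in about 1 of 20 groups. H2-Eb2 was highest in APP/PS1 4 at 3.24 CPM and Cd40 was highest in the same library at 2.57 CPM. Jak2 was highest in APP/PS1 3 at 97.9 CPM. Ifng was lowest in APP/PS1 3 at 0.41 CPM, which is 6 reads.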

How the results depend on the processing

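The number of class II genes called in APP/PS1 against WT was 5, and it was 8 with DESeq2, 3 with the replicate block and 2 to 6 with each library left out in turn. The replicate block uses APP/PS1 replicate 4 in no comparison because that number has no partner. In APP/PS1+N-AS against APP/PS1 DESeq2 called 3 genes and every other fit, with the block or without a library included, called 0, and in APP/PS1+N-AS against WT DESeq2 called 1, H2-Oa. Genes higher at an unadjusted p under 0.05 in APP/PS1+N-AS against WT numbered 2, and the number was 1 with at least 10 counts in every library, which removes H2-Oa, 1 to 4 with each library left out in turn, and 5 without APP/PS1 replicate 4 and APP/PS1+N-AS replicate 3, chosen after seeing the data. Beyond these the block changed no count of class II genes by more than 1.5 times. The groups share only their numbers, and in no comparison did every library correlate best with its own number. H2-Eb1 in APP/PS1+N-AS against WT lay between −0.045 (without WT replicate 3) and 0.53 with each library left out in turn. Of the single-gene values under the alternatives, 511 kept direction and side of the threshold, 13 lost the call and 10 gained it. The cause of these changes was not tested, other than the removal of H2-Oa. Over all genes 649 were called in APP/PS1 against WT, 1297 with DESeq2, 326 with the block, 1055 with the library set as a covariate, 410 in a fit of 2 groups and 299 to 923 with a library left out. In APP/PS1+N-AS against APP/PS1 the numbers were 0 and 73 with DESeq2, and 1653 genes were under an unadjusted p of 0.05. In APP/PS1+N-AS against WT 35 were called, 180 with DESeq2, 5 with the block, 64 with the library set, 20 with limma, 2 in a fit of 2 groups and 1 to 116 with a library left out. H2-Oa rests on 3 to 9 reads per library in WT, and pools of mice limit all p-values.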
